A study of Homo sapiens with 6 samples.

Results

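The genes described here encode the machinery that carries newly made proteins into the endoplasmic reticulum (ER) and out of it again. They are listed by gene symbol, and cover the SEC61 channel and its partners, the signal recognition particle (SRP) and its receptor, the TRAP complex, signal peptidase, the COPII coat and a set of cargo receptors. The list has 44 genes among the 60683 rows of the count table, and all 44 matched a row and passed the filter on low counts. RNA was sequenced from 143B cells, a human osteosarcoma line derived from the HOS line, in 3 libraries from cells given the compound TPBC-PEG and 3 from cells given PBS, each for 24 h. The TPBC-PEG dose is 3 µM in the sample titles and 300 µM in the treatment protocol, so it is not settled here. The study is about photodynamic therapy, a treatment in which a compound is activated by light, but light exposure of the sequenced cells is not mentioned in the labels. All libraries come from 1 line, and separate cultures are not stated for the replicates. The p-values below therefore reflect the spread among these libraries alone, and that spread may be technical. Libraries held 15726323 to 20486584 counts.

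The libraries carried the general mesenchymal marker VIM at 2290 to 2382 CPM in TPBC-PEG and 2551 to 2591 CPM in PBS, and RUNX2 at 24.1 to 27.2 CPM in TPBC-PEG and 15.9 to 19.1 CPM in PBS. The 8 mesenchymal and osteoblast markers summed to 2732 to 2850 CPM in TPBC-PEG and 3039 to 3084 CPM in PBS, most of it VIM. CPM put each library's counts on a common total, here after scaling by the trimmed mean of M values (TMM). SPARC was at 353 to 382 CPM in TPBC-PEG and 400 to 424 CPM in PBS, COL1A1 at 17.6 to 22.7 and 24.7 to 29.9 CPM, and SPP1 at 29.9 to 31.9 and 16.1 to 19.0 CPM, in the same order of groups. ALPL (3.91 to 4.77 CPM in TPBC-PEG, 4.54 to 5.68 CPM in PBS) and S100A4 (0.675 to 1.07 CPM in TPBC-PEG, 1.07 to 1.44 CPM in PBS) were low. The collagen gene COL1A2 was at or near 0, at most 0.103 CPM in TPBC-PEG and 0.126 CPM in PBS. The 3 haematopoietic markers summed to at most 0.103 CPM in TPBC-PEG and 0.0631 CPM in PBS, and the 3 endothelial markers to at most 0.360 CPM in TPBC-PEG and 0.504 CPM in PBS. Of the 3 epithelial markers, EPCAM was at 16.2 to 17.5 CPM in TPBC-PEG and 15.1 to 17.7 CPM in PBS, while CDH1 and KRT19 were at most 0.145 and 0.289 CPM in TPBC-PEG and 0.0631 CPM each in PBS. Mitochondrially encoded mRNAs took 4.75% to 4.92% of the counts in TPBC-PEG and 5.42% to 6.32% in PBS, and their part in the results below was not tested.

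As background, a protein bound for secretion begins with a signal sequence, which SRP binds as it leaves the ribosome. SRP docks on its receptor in the ER membrane, and the growing chain passes through the SEC61 channel with help from TRAP, TRAM and the SEC62 and SEC63 proteins, while signal peptidase removes the signal sequence. Folded cargo leaves at ER exit sites, where PREB (also called SEC12) activates the SAR1 GTPases, SEC23 and SEC24 form the inner COPII coat and bind cargo, SEC13 and SEC31 form the outer cage, and membrane receptors such as LMAN1 and SURF4 hold soluble cargo. Bone-forming cells depend on this route for collagen: MIA3 (TANGO1) is needed for procollagen export, and inherited variants of SEC24D and SEC23A cause skeletal disease. Many of these genes are known targets of the unfolded protein response, the programme that cells switch on when unfolded protein builds up in the ER.

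After TPBC-PEG most of this machinery was modestly higher. Of the 44 genes, 28 rose, 3 fell and 13 did not pass the test, at a Benjamini-Hochberg adjusted p under 0.05 in edgeR's quasi-likelihood test over 15846 genes. In the same comparison 16.2% of all genes tested were higher and 16.9% were lower. The 44 genes were chosen with earlier results of these data known, so they are not an independent list. The median log2 fold change was 0.20 over the 44 genes, beside 0.011 over all genes tested. The values ran from -0.17 for SRP9 to 0.92 for SEC24D, so the changes were small in size. SEC24D, TRAM1 and SEC11C, 3 of the 44, changed by at least 1.5-fold, as did 8.22% of all genes tested, a share near theirs. The 2-fold mark was reached by 0 of the 44 and by 343 of the 15846 genes tested. At that rarity a count of 0 does not set the 44 apart. When the test asked for a change beyond 1.5-fold, SEC24D alone of the 44 passed (adjusted p = 6.41e-07), while 131 of all genes tested (0.827%) passed as higher and 14 (0.0884%) as lower. Libraries are bulk RNA, in which fewer cells expressing a gene and less RNA per cell cannot be told apart.

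The values of the groups did not overlap for 34 of the 44 genes, 28 of them higher in TPBC-PEG and 6 lower. Over all genes tested, 22.1% were higher without overlap and 21.4% were lower without overlap. Most of the machinery is abundant, and 41 of the 44 genes averaged at least 50 CPM. Among these 41, 27 rose and 3 fell, while among the 4568 genes at that level 19.2% were higher and 35.2% were lower. The summed counts of the 44 genes took 0.995%, 1.00% and 0.962% of the TPBC-PEG libraries, against 0.836%, 0.824% and 0.817% of the PBS libraries. Both the entry genes (0.601%, 0.602% and 0.578% in TPBC-PEG, against 0.506%, 0.494% and 0.493% in PBS) and the exit genes (0.394%, 0.398% and 0.384% in TPBC-PEG, against 0.330%, 0.331% and 0.324% in PBS) held a larger share in every TPBC-PEG library than in any PBS library. With library size alone in place of TMM, 3213 of all genes were higher and 1971 lower in place of 2574 and 2682, and 31 of the 44 were higher and 1 lower.

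**Figure D1:**
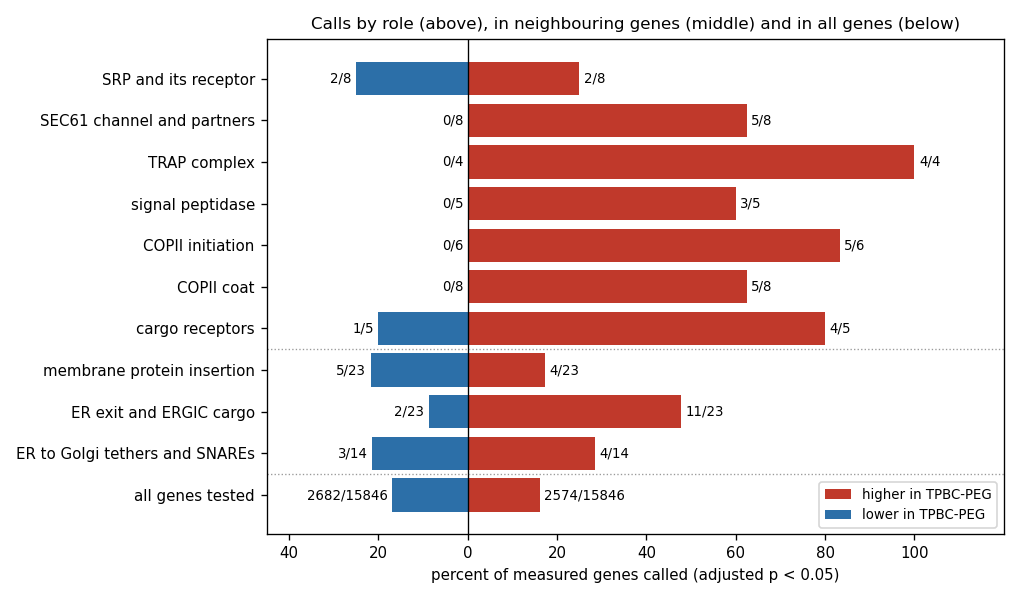
Percent of the measured genes in each role that were higher (red, to the right) or lower (blue, to the left) in TPBC-PEG at an adjusted p under 0.05, with the counts beside the bars; the 3 neighbouring lists and all genes tested stand underneath. All 4 TRAP genes rose, while SRP and its receptor had 2 of 8 higher and 2 of 8 lower, beside 16.2% higher and 16.9% lower of all genes.

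By role the medians differed. SRP and its receptor had a median log2 fold change of 0.075, the signal peptidase genes 0.11, the genes that start the COPII coat 0.16, the coat genes 0.21, the SEC61 channel and its partners 0.22, the TRAP genes 0.28 and the cargo receptors 0.35. Of the 25 entry genes, from SRP to signal peptidase, 14 rose and 2 fell, with a median of 0.14. Of the 19 exit genes, from SAR1 to the cargo receptors, 14 rose and 1 fell, with a median of 0.23. Over all genes tested, 16.2% were higher and 16.9% were lower, with a median of 0.011. These medians are descriptions, and no test of a difference between roles was run.

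**Figure D2:**
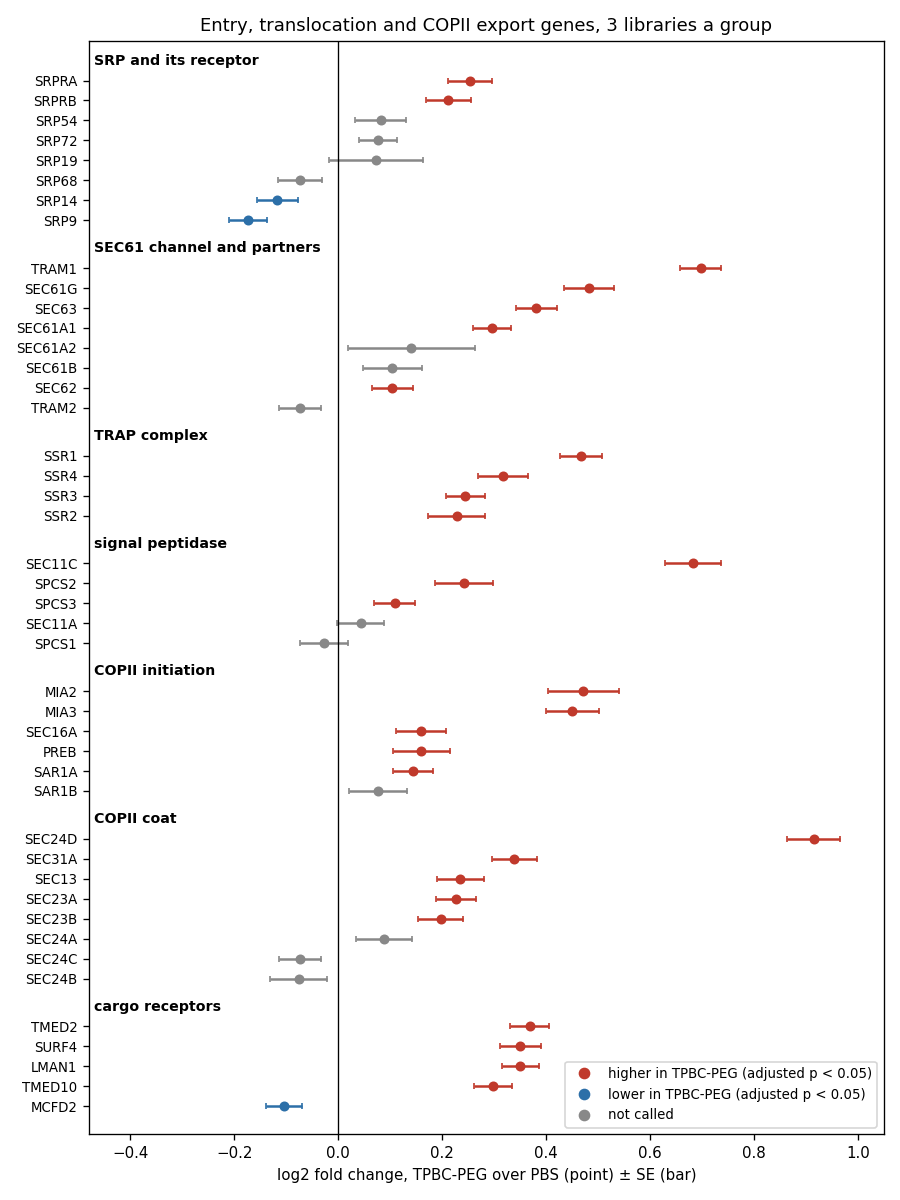
The log2 fold change of each of the 44 genes, TPBC-PEG over PBS (point), with its standard error (bar), grouped by role; the x axis is in log2 units and colours mark the call. The largest rise is SEC24D at 0.92 and the largest fall SRP9 at -0.17.

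Promoter windows were searched because several of these genes are known targets of ER stress factors. RefSeq windows (GRCh38.p14) reach from 250 bases before to 50 bases after a start, and 39 of the 44 genes had one. Only 1 window was used per gene, so other starts of a gene were not searched. Some windows, such as those of MIA3, SEC23A, SRPRB and MCFD2, lie inside the GENCODE gene and not at its outer end. SEC24D, TRAM1, MIA2, SRPRA and SPCS1 were not searched. Both strands were searched for the core TGACGTG, which XBP1 and ATF6 are known to bind. It was present in 7 of the 39 windows (17.9%), namely those of SRP19, SEC62, SEC16A, MIA3, SEC23A, SEC24A and SEC13, against 2.56% of 11331 windows of genes tested and 2.0% of all 27305 windows. Of these 7 genes 5 rose (SEC62, SEC16A, MIA3, SEC23A and SEC13), and of all 39 genes with a window 24 rose, so the core was in 20.8% of the windows of risen genes and 13.3% of the other 15. The ER stress element, CCAAT and CCACG with 9 bases between them, was in 0 of the 39 windows and in 0.124% of those of genes tested, and its relative ERSE-II, ATTGG and CCACG with 1 base between them, was in 0 of the 39 and in 0.0971%. The short motif CCACG alone was in 76.9% of the 39 and 49.6% of genes tested, and it overlaps TGACGTG wherever a G follows. The amino acid response motif TGATGNAAN, which ATF4 complexes are known to bind, was in 2 of the 39 (SRPRB and MCFD2), or 5.13%, and in 1.69% of genes tested and 3.67% of all windows. A match is a description of letters and not a binding site.

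The upstream stretches of the risen genes that hold a longer motif are shown to give its setting, 5′ to 3′ on the strand of the gene with the motif in capitals. CACGTCA is TGACGTG read on the other strand. MIA3 (chr1:222644292-222644318, forward strand) holds it at positions -27 to -21 from the RefSeq start used, SEC62 (chr3:169966781-169966806, forward strand) at -16 to -10 and SEC13 (chr3:10321219-10321285, reverse strand) at -143 to -137, while SRPRB (chr3:133805565-133805604, forward strand) holds the amino acid response motif at -249 to -241, also on the other strand. In GENCODE the MIA3 gene begins at 222618086, the SRPRB gene at 133784033 and the SEC62 gene at 169966635. The stretches of MIA3, SRPRB and SEC62 therefore lie inside the gene, before a later start. The SEC13 gene, on the reverse strand, spans 10293131 to 10321178, and its stretch lies outside it.
MIA3: cagtggctgaTGACGTGttttataggc
SEC62: ctcctcgctcCACGTCAgagggaacc
SEC13: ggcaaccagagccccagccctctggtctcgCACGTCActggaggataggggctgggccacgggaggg
SRPRB: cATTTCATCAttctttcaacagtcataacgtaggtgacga
In MIA3 the core is followed by a T, so it forms no CCACG, whereas in SEC62 a C precedes CACGTCA and the CCACG motif overlaps it.

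SRP and its receptor were split, with the receptor higher and the particle mixed. SRPRA, the receptor GTPase that meets SRP, had 145, 159 and 149.9 CPM in the TPBC-PEG libraries, against 122, 131 and 128 CPM in the PBS libraries. Its log2 fold change was 0.25 ± 0.043 (SE; edgeR quasi-likelihood, Benjamini-Hochberg adjusted p = 5.14e-06). SRPRB, which anchors it in the membrane, had 147, 147 and 136 CPM in the TPBC-PEG libraries, against 121, 122 and 128 CPM in the PBS libraries, a log2 fold change of 0.21 ± 0.043 (adjusted p = 9.67e-05). All TPBC-PEG values of both receptor genes lay above all PBS values; 21.1% of the exon length of SRPRB overlaps other annotated genes, whose reads could not be separated here.

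SRP9 and SRP14 form the pair that slows translation while SRP seeks its receptor. SRP9, on chromosome 1, 225777813 to 225790466 on the forward strand in GRCh38, had 281, 283 and 277 CPM in the TPBC-PEG libraries, against 321, 319 and 308 CPM in the PBS libraries. Every TPBC-PEG value lay below every PBS value, and the log2 fold change was -0.17 ± 0.037 (edgeR, adjusted p = 1.55e-04); with the trend in expression level removed it was -0.093 (adjusted p = 0.0452). SRP14 had 162, 154 and 156 CPM in the TPBC-PEG libraries, against 172, 174 and 166 CPM in the PBS libraries, a log2 fold change of -0.12 ± 0.040 (adjusted p = 0.019). The call on SRP14 did not last under every setting: its adjusted p was 0.162 when libraries were scaled by their size alone, 0.302 with the trend in expression level removed, and 0.0575 without PBS replicate 2 and 0.108 without TPBC-PEG replicate 2. SRP14 has 4 pseudogenes named after it in GENCODE and SRP9 has 1, so some reads may be shared. The other subunits did not pass the test. SRP54, which binds the signal sequence, had a log2 fold change of 0.081, SRP72 0.077, SRP68 -0.074 and SRP19, which assembles the particle and overlaps other genes over 18.2% of its exon length, 0.072. SRP72 and SRP68 bind each other, and the groups did not overlap for either gene, with SRP72 higher and SRP68 lower in TPBC-PEG. SRP72 passed the test with library size alone (adjusted p = 0.00554) and with the expression trend removed (adjusted p = 3.36e-04), and SRP54 with library size alone (adjusted p = 0.0453).

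In the channel itself the pore subunit and 1 of the small subunits rose. SEC61A1, which forms the pore, had 626, 631 and 605 CPM in the TPBC-PEG libraries, against 486, 518 and 514 CPM in the PBS libraries, a log2 fold change of 0.30 ± 0.036 (edgeR, adjusted p = 5.09e-09). SEC61G, the gamma subunit that braces the pore, had 204, 214 and 203 CPM in the TPBC-PEG libraries, against 155, 133 and 157 CPM in the PBS libraries, a log2 fold change of 0.48 ± 0.048 (adjusted p = 3.23e-09). PBS replicate 2 was the lowest of the SEC61G values, and the groups did not overlap. SEC61B, the beta subunit, averaged 67.4 ± 4.47 CPM in TPBC-PEG and 62.7 ± 4.59 CPM in PBS (SD, n = 3 each), and its log2 fold change of 0.10 ± 0.057 did not pass (adjusted p = 0.161; 0.0487 with library size alone). SEC61A2, a second form of the pore subunit, was low, at 9.66, 11.0 and 8.28 CPM in the TPBC-PEG libraries, against 9.28, 7.92 and 9.27 CPM in the PBS libraries. Its groups overlapped and it did not pass (log2 fold change 0.14 ± 0.12, adjusted p = 0.416).

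TRAM1, a membrane protein that lies against entering chains, was the largest riser of the entry genes. It had 409, 416 and 390.1 CPM in the TPBC-PEG libraries, against 251, 263 and 236 CPM in the PBS libraries. The groups were far apart, with a log2 fold change of 0.70 ± 0.039 (edgeR, adjusted p = 7.14e-20). Its paralogue TRAM2 had 170.1, 168 and 169.6 CPM in the TPBC-PEG libraries, against 172, 176 and 187 CPM in the PBS libraries, and its log2 fold change of -0.074 ± 0.040 did not pass (adjusted p = 0.159), although its groups did not overlap either.

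SEC63, which recruits the chaperone BiP to the channel, had 231, 235 and 217 CPM in the TPBC-PEG libraries, against 173, 172 and 180.4 CPM in the PBS libraries, a log2 fold change of 0.38 ± 0.040 (edgeR, adjusted p = 5.50e-11). All TPBC-PEG values lay above all PBS values. SEC62, which works with SEC63 for short or late-targeted chains, had a log2 fold change of 0.10 ± 0.039 (adjusted p = 0.0372), among the smallest rises called. Its call was lost in 10 of the 18 other settings, the 1.5-fold test among them. The adjusted p was 0.0698 without PBS replicate 1, 0.127 without PBS replicate 2, 0.0586 without PBS replicate 3, 0.205 without TPBC-PEG replicate 1 and 0.158 without TPBC-PEG replicate 2. It was 0.103 with DESeq2, 0.0967 with no filter on low counts and 0.0512 without robust estimation. With the trend in GC content removed the log2 fold change of SEC62 was 0.039 (adjusted p = 0.496), and with the trend in expression level removed it was 0.17 (adjusted p = 5.81e-04).

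All 4 genes of TRAP, the translocon-associated complex that helps chains with weak signal sequences enter, rose. SSR1, the alpha subunit, had 237, 244 and 228 CPM in the TPBC-PEG libraries, against 175, 161 and 177 CPM in the PBS libraries, a log2 fold change of 0.47 ± 0.041 (edgeR, adjusted p = 2.31e-13). SSR4, the delta subunit, had 105, 98.0 and 104 CPM in the TPBC-PEG libraries, against 86.4, 80.8 and 79.3 CPM in the PBS libraries, a log2 fold change of 0.32 ± 0.048 (adjusted p = 5.34e-07). SSR3, the gamma subunit, had 1479, 1478 and 1424 CPM in the TPBC-PEG libraries, against 1296, 1159 and 1242 CPM in the PBS libraries, a log2 fold change of 0.24 ± 0.038 (adjusted p = 9.35e-07). In each of these the lowest TPBC-PEG value exceeded the highest PBS value. SSR2, the beta subunit, was also higher without overlap, at a log2 fold change of 0.23 ± 0.055 (adjusted p = 9.53e-04). The 4 calls stood in every setting tried other than the test against a 1.5-fold change, and SSR3 had a log2 fold change of 0.37 with the trend in expression level removed.

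In signal peptidase the largest change was in 1 of the catalytic subunits. SEC11C, on chromosome 18, 59139477 to 59158836 on the forward strand, had 90.3, 93.1 and 83.8 CPM in the TPBC-PEG libraries, against 51.6, 58.9 and 56.3 CPM in the PBS libraries, a log2 fold change of 0.68 ± 0.054 (edgeR, adjusted p = 1.08e-14). SEC11A, the alternative catalytic subunit, had 97.5, 100.5 and 100.3 CPM in the TPBC-PEG libraries, against 95.7, 97.8 and 96.0 CPM in the PBS libraries. The values of SEC11A overlapped and its log2 fold change was 0.043 ± 0.045 (adjusted p = 0.508). The accessory subunit SPCS2 had 62.8, 60.2 and 60.6 CPM in the TPBC-PEG libraries, against 49.1, 53.6 and 52.8 CPM in the PBS libraries, a log2 fold change of 0.24 ± 0.056 (adjusted p = 5.07e-04). SPCS2 values did not overlap between groups, though 4 named pseudogenes could share its reads. SPCS3, which the enzyme needs for activity, had 362, 368 and 339.5 CPM in the TPBC-PEG libraries, against 347, 326 and 319 CPM in the PBS libraries, a log2 fold change of 0.11 ± 0.039 (adjusted p = 0.0256). The groups overlapped for SPCS3 and its call was lost in several settings, with an adjusted p of 0.0756 without PBS replicate 2, 0.168 without PBS replicate 3, 0.122 without TPBC-PEG replicate 1 and 0.178 without TPBC-PEG replicate 2, 0.0712 with DESeq2 and 0.0515 with no filter on low counts. With the trend in GC content removed its log2 fold change was 0.039 (adjusted p = 0.486), and with the trend in expression level removed it was 0.19 (adjusted p = 9.05e-05). SPCS1, the smallest subunit, had a log2 fold change of -0.027 that did not pass and was 0.016 with library size alone, and 58.1% of its exon length overlaps other genes.

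At the exit sites, both members of the TANGO1 family rose together. MIA3, the TANGO1 protein that helps pack procollagen, had 82.3, 83.6 and 80.3 CPM in the TPBC-PEG libraries, against 60.1, 62.0 and 58.2 CPM in the PBS libraries, a log2 fold change of 0.45 ± 0.051 (edgeR, adjusted p = 4.88e-10). MIA2, whose product binds MIA3 and PREB at exit sites, had 40.5, 41.0 and 35.8 CPM in the TPBC-PEG libraries, against 28.6, 28.4 and 27.8 CPM in the PBS libraries, a log2 fold change of 0.47 ± 0.069 (adjusted p = 2.50e-07). Neither gene's groups overlapped. SEC16A, the scaffold of exit sites, had 92.2, 96.2 and 99.0 CPM in the TPBC-PEG libraries, against 81.9, 87.0 and 88.3 CPM in the PBS libraries, a log2 fold change of 0.16 ± 0.048 (adjusted p = 0.00715). Its groups did not overlap, but leaving out PBS replicate 1 ended the call (adjusted p = 0.0798).

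PREB, the exchange factor that loads SAR1 with GTP, had a log2 fold change of 0.16 ± 0.055 (edgeR, adjusted p = 0.0206) with overlapping groups. Its call was lost with DESeq2 (adjusted p = 0.0973), and its adjusted p was 0.134 without PBS replicate 1, 0.106 without PBS replicate 3, 0.052 without TPBC-PEG replicate 1 and 0.157 without TPBC-PEG replicate 2. SAR1A, a GTPase whose insertion into the membrane starts a COPII bud, had 211, 216 and 214 CPM in the TPBC-PEG libraries, against 201, 188 and 191 CPM in the PBS libraries, a log2 fold change of 0.14 ± 0.039 (adjusted p = 0.00284). The groups did not overlap. SAR1B, its paralogue, needed for export of lipid particles in the gut, had 56.3, 59.5 and 53.1 CPM in the TPBC-PEG libraries, against 54.7, 52.2 and 53.5 CPM in the PBS libraries. The groups overlapped for SAR1B and it did not pass (log2 fold change 0.076 ± 0.057, adjusted p = 0.326). SAR1A has 4 named pseudogenes, and SAR1B lies head to head with SEC24A on chromosome 5, their annotated ends overlapping.

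SEC24D rose more than any other of the 44 genes. It encodes a cargo-binding subunit of the inner coat and lies on chromosome 4, 118722823 to 118838683 on the reverse strand. It had 106, 114 and 101 CPM in the TPBC-PEG libraries, against 56.7, 57.9 and 56.1 CPM in the PBS libraries. The lowest TPBC-PEG value was far above the highest PBS value, the log2 fold change was 0.92 ± 0.051, a 1.89-fold rise (edgeR, adjusted p = 3.75e-20), and 0% of its exon length overlaps other genes. The other cargo-binding subunits did not pass. SEC24C, the paralogue closest to SEC24D, had 143, 143 and 146 CPM in the TPBC-PEG libraries, against 148, 152 and 156 CPM in the PBS libraries. SEC24B had 56.5, 54.9 and 53.5 CPM in the TPBC-PEG libraries, against 59.2, 55.7 and 59.2 CPM in the PBS libraries. SEC24A had 64.5, 61.3 and 62.8 CPM in the TPBC-PEG libraries, against 58.3, 58.8 and 60.5 CPM in the PBS libraries. Their log2 fold changes were -0.073 ± 0.041, -0.076 ± 0.055 and 0.088 ± 0.053 in that order of genes (adjusted p = 0.169, 0.313 and 0.213); SEC24C was lower and SEC24A higher without overlap, and SEC24B overlapped. Of the exon length of SEC24C, 42.9% overlaps other genes.

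The outer cage and the SEC23 genes rose by less than SEC24D. SEC31A, the rod of the outer cage, had 138, 141 and 147 CPM in the TPBC-PEG libraries, against 113, 115 and 109 CPM in the PBS libraries, a log2 fold change of 0.34 ± 0.043 (edgeR, adjusted p = 1.01e-08). SEC13, its partner in the cage and also a nuclear pore subunit, had 118, 118 and 122 CPM in the TPBC-PEG libraries, against 97.3, 101 and 106 CPM in the PBS libraries, a log2 fold change of 0.24 ± 0.045 (adjusted p = 3.68e-05). TPBC-PEG replicate 3 was the highest of the SEC31A values, whereas for most of the other risen genes it was the lowest of the TPBC-PEG values. SEC23A, which activates the GTPase of SAR1 and joins SEC24 in the inner coat, had 258, 256 and 250.4 CPM in the TPBC-PEG libraries, against 223, 219 and 211 CPM in the PBS libraries, a log2 fold change of 0.23 ± 0.038 (adjusted p = 3.71e-06). SEC23B, its paralogue, had 124, 129 and 125 CPM in the TPBC-PEG libraries, against 115, 108 and 107 CPM in the PBS libraries, a log2 fold change of 0.20 ± 0.044 (adjusted p = 3.28e-04). Both SEC23 genes were higher without overlap.

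Of the 5 cargo receptors 4 rose, by similar amounts, and MCFD2 fell. TMED2, a p24 family protein that sorts GPI-anchored cargo, had 395, 406 and 372 CPM in the TPBC-PEG libraries, against 307, 297 and 306 CPM in the PBS libraries, a log2 fold change of 0.37 ± 0.038 (edgeR, adjusted p = 3.19e-11). SURF4, a receptor for soluble secreted proteins, had 233, 235 and 219 CPM in the TPBC-PEG libraries, against 178, 183 and 180.1 CPM in the PBS libraries, a log2 fold change of 0.35 ± 0.039 (adjusted p = 3.77e-10). LMAN1, a lectin that carries coagulation factors, had 588, 590.4 and 560.4 CPM in the TPBC-PEG libraries, against 456, 458 and 451 CPM in the PBS libraries, a log2 fold change of 0.35 ± 0.036 (adjusted p = 3.42e-11). None of these 3 genes had overlapping groups. TMED10, the p24 partner of TMED2, had a log2 fold change of 0.30 ± 0.036 (adjusted p = 4.05e-09), also without overlap. MCFD2, the soluble partner that LMAN1 needs to bind coagulation factors, lies on chromosome 2, 46901870 to 46941855 on the reverse strand and had 595, 598 and 589 CPM in the TPBC-PEG libraries, against 637, 641 and 639 CPM in the PBS libraries. Its groups did not overlap and its log2 fold change was -0.10 ± 0.035 (adjusted p = 0.0165), opposite in sign to that of LMAN1. Scaling by library size alone ended the call on MCFD2 (adjusted p = 0.167), as did removal of the trend in expression level (log2 fold change -0.0061, adjusted p = 0.924) and leaving out TPBC-PEG replicate 1 (adjusted p = 0.064).

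**Figure D3:**
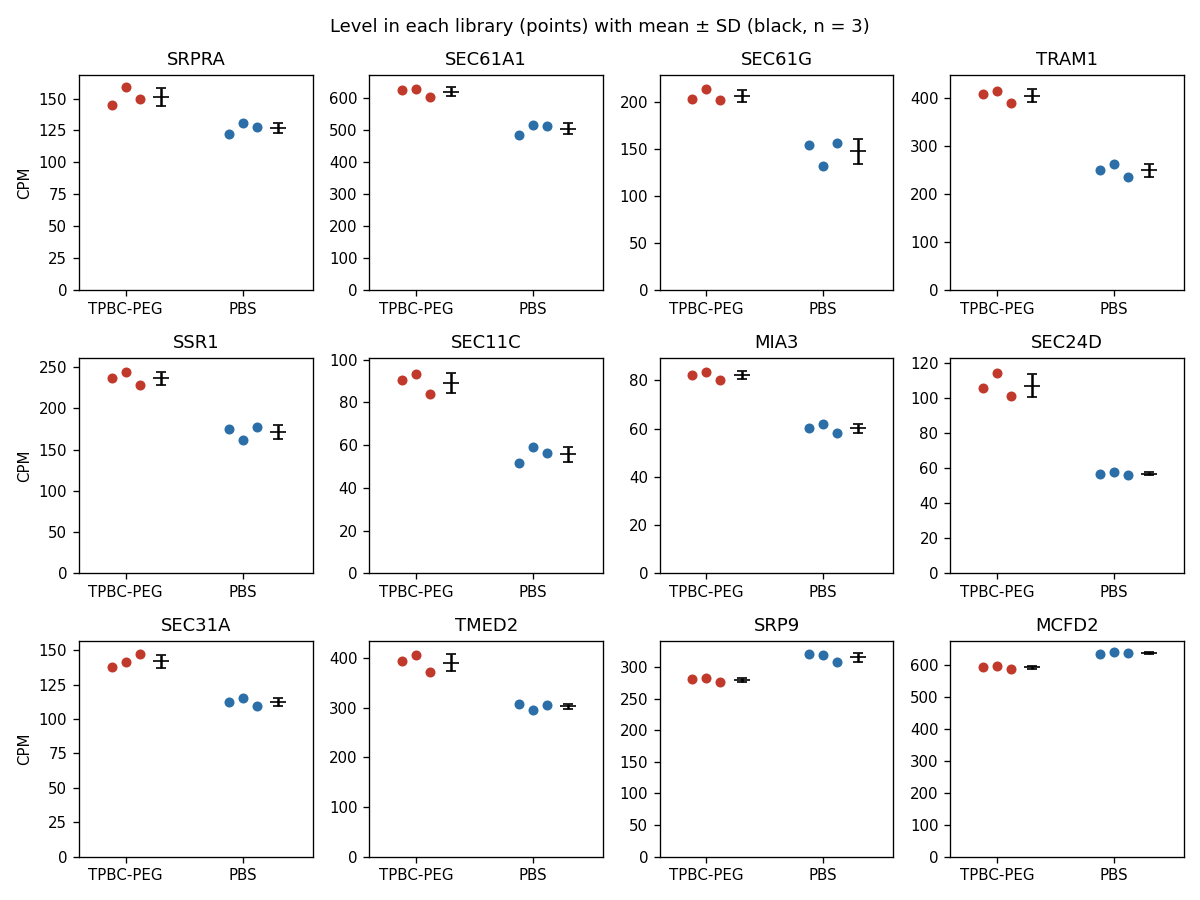
Level of 12 of the genes in each library (points, CPM on the y axis from 0), TPBC-PEG left of PBS, with the mean ± SD of the 3 libraries in black. For all 12 the groups are apart, with SRP9 and MCFD2 lower and the other 10 higher in TPBC-PEG.

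Among the risen genes the TPBC-PEG libraries were not equally high. The same order was not counted over all genes, so whether it is particular to these genes is not known. Of the 28 risen genes, TPBC-PEG replicate 2 held the highest TPBC-PEG value for 18, replicate 1 for 7 and replicate 3 for 3, while replicate 3 held the lowest TPBC-PEG value for 20. Leaving out each library in turn left 25 to 28 of the 44 higher and 2 or 3 lower. Over all genes the same fits called 1987 to 2347 higher and 2141 to 2515 lower, of 16102 to 16271 tested.

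Paralogues were compared within each library, where a ratio does not depend on scaling. The log2 ratio of SEC24D to SEC24C was -0.44, -0.33 and -0.53 in the TPBC-PEG libraries, against -1.38, -1.39 and -1.47 in the PBS libraries, a difference of 0.98. The log2 ratio of SEC11C to SEC11A was -0.11, -0.11 and -0.26 in TPBC-PEG, against -0.89, -0.73 and -0.77 in PBS, a difference of 0.64. The log2 ratio of TRAM2 to TRAM1 was -1.27, -1.30 and -1.20 in TPBC-PEG, against -0.55, -0.58 and -0.33 in PBS, a difference of -0.77. In these 3 pairs the ratios of the groups lay wide apart. SEC24A to SEC24B also differed without overlap, by 0.16. For these 4 pairs the two-sided exact permutation p was 0.1, the smallest that 3 against 3 libraries can give, and 0.2 after Benjamini-Hochberg adjustment over the 8 pairs, so none could pass. The remaining pairs overlapped, with differences of -0.17 for SEC61A2 to SEC61A1, -0.073 for SAR1B to SAR1A, -0.029 for SEC23B to SEC23A and 0.015 for MIA2 to MIA3 (exact permutation p = 0.3, 0.2, 0.4 and 0.7 in that order of pairs).

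**Figure D4:**
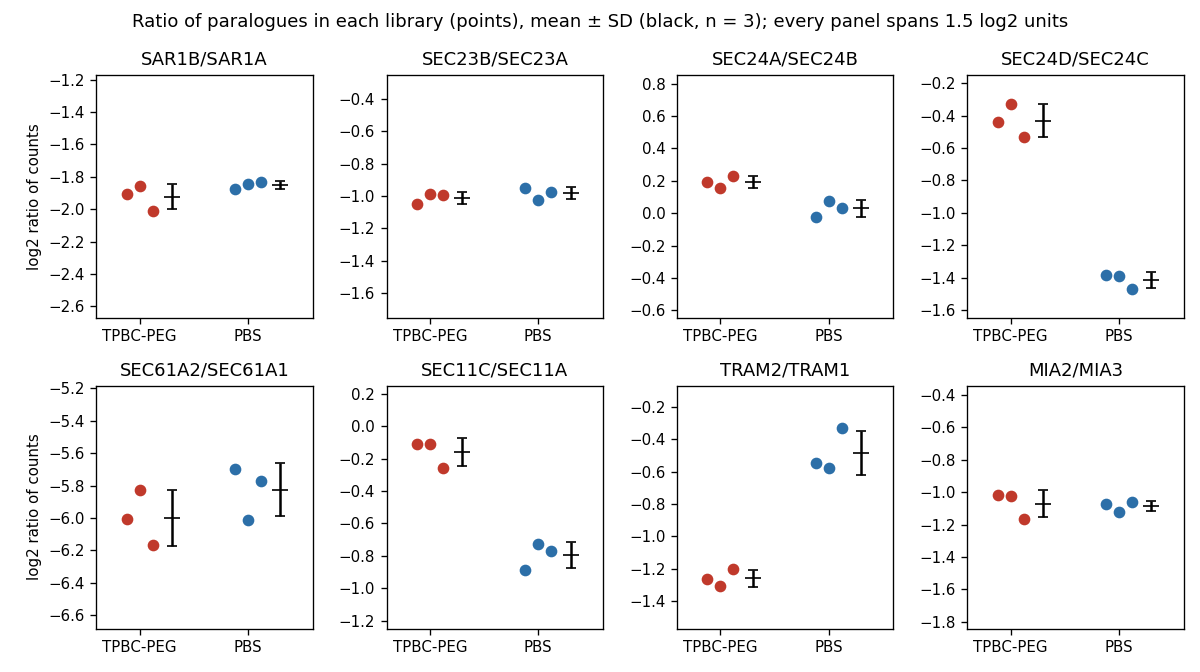
The log2 ratio of the first to the second gene of each of the 8 paralogue pairs in each library (y axis, log2 units), TPBC-PEG left of PBS. The groups are apart for SEC24D to SEC24C, SEC11C to SEC11A, TRAM2 to TRAM1 and SEC24A to SEC24B, and overlap for the other 4 pairs.

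Per length of the principal annotated transcript, the levels show which paralogue led. SEC24D averaged 26.6 ± 1.64 in TPBC-PEG and 14.1 ± 0.232 in PBS (CPM per kb, mean ± SD, n = 3 each), SEC24C 32.0 ± 0.398 in TPBC-PEG and 33.7 ± 0.815 in PBS, SEC24B 14.5 ± 0.402 in TPBC-PEG and 15.3 ± 0.531 in PBS, and SEC24A 9.98 ± 0.259 in TPBC-PEG and 9.39 ± 0.184 in PBS. SEC24C was thus the most abundant of the family by these counts in both groups, and SEC24D moved closer to it in TPBC-PEG. Of the exon length of SEC24C, 42.9% overlaps another gene on the opposite strand, whose reads could not be separated here. On the same scale of CPM per kb, SEC11C averaged 74.1 ± 3.95 in TPBC-PEG and 46.3 ± 3.07 in PBS, and SEC11A 60.0 ± 1.01 in TPBC-PEG and 58.3 ± 0.673 in PBS. SEC11C was therefore above SEC11A in TPBC-PEG and below it in PBS on this scale. Of the pore forms, SEC61A1 averaged 171 ± 3.84 in TPBC-PEG and 139 ± 4.73 in PBS, and SEC61A2 5.10 ± 0.730 in TPBC-PEG and 4.66 ± 0.412 in PBS, again in CPM per kb. Among the subunits of 1 complex the levels were far from equal: in TRAP, SSR3 averaged 393 ± 8.45 in TPBC-PEG and 332 ± 18.7 in PBS, SSR2 69.7 ± 4.67 in TPBC-PEG and 59.5 ± 4.27 in PBS, SSR4 61.3 ± 2.37 in TPBC-PEG and 49.2 ± 2.23 in PBS, and SSR1 24.5 ± 0.829 in TPBC-PEG and 17.7 ± 0.899 in PBS CPM per kb. These levels assume that the principal transcript is the one expressed, which was not tested. Where several transcripts shared the best principal class, the longest was taken. In CPM, SSR1 averaged 236 in TPBC-PEG and 171 in PBS, SSR4 102 and 82.1, and SSR2 77.7 and 66.4, in the same order of groups. The place of SSR1 among these thus depends on the length used.

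The route has other genes, of which 62 were chosen by function, with earlier results of these data known. They are therefore not an independent comparison. Of the 60 that were measured, 19 rose and 10 fell, beside 16.2% and 16.9% of all genes tested, with a median log2 fold change of 0.040. In membrane protein insertion, 4 of 23 rose and 5 fell. HM13, the signal peptide peptidase, had a log2 fold change of 0.38, EMC9, a subunit of the ER membrane complex, 0.33, CAMLG, a receptor for tail-anchored proteins, 0.24 and TMEM208, of an alternative targeting route, 0.22. EMC6, another subunit of the ER membrane complex, had a log2 fold change of -0.38, SGTA, a chaperone for tail-anchored proteins, -0.34 and NCLN (nicalin), which works at the channel on proteins with many membrane spans, -0.26. The calls on EMC9 (adjusted p = 0.112 without PBS replicate 3 and 0.141 without TPBC-PEG replicate 2) and on TMEM208 (adjusted p = 0.161 without PBS replicate 1, 0.0831 without PBS replicate 2, 0.102 without TPBC-PEG replicate 1 and 0.0846 without TPBC-PEG replicate 3) were lost when single libraries were left out, and both with DESeq2 (adjusted p = 0.0784 for EMC9 and 0.134 for TMEM208), TMEM208 also with no filter (adjusted p = 0.0682). With the trend in GC content removed NCLN was at -0.17. Other annotated genes overlap 74.3% of the exon length of EMC6 and 20.2% of that of EMC9.

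In ER exit and cargo of the intermediate compartment, 11 of 23 measured genes rose (47.8%) and 2 fell (8.7%). Of all genes tested, 16.2% were higher and 16.9% were lower. TMED5 and TMED9, p24 proteins like TMED2 and TMED10, had log2 fold changes of 0.41 and 0.37. CREB3L2, a transcription factor known to drive SEC23A in cartilage of mice, had a log2 fold change of 0.38 and YIF1B, a protein of ER to Golgi traffic, 0.29. ERGIC1, a protein of the intermediate compartment, had a log2 fold change of -0.40. KLHL12, a ubiquitin ligase adaptor that acts on SEC31A, had a log2 fold change of -0.17, a call that was lost in several settings (adjusted p = 0.105 without PBS replicate 1, 0.0589 without TPBC-PEG replicate 2 and 0.102 without TPBC-PEG replicate 3, 0.115 with scaling by library size and 0.0551 with DESeq2). Among the tethers and SNAREs that receive COPII vesicles, 4 of 14 measured genes rose (28.6%) and 3 fell (21.4%), beside the same shares of all genes. The SNARE BET1 had a log2 fold change of 0.69, the tether USO1 0.35, the Golgi matrix protein GOLGA2 (GM130) 0.32 and SCFD1, a partner of SNAREs, 0.19. RAB1B, a GTPase of vesicle docking, had a log2 fold change of -0.31, and the TRAPP subunits TRAPPC4 and TRAPPC2L had -0.30 and -0.20. The call on TRAPPC4 was lost without TPBC-PEG replicate 2 (adjusted p = 0.0683) and that on TRAPPC2L without PBS replicate 1 (adjusted p = 0.0862) or with scaling by library size (adjusted p = 0.0555). Other annotated genes overlap 42.6% of the exon length of RAB1B and 17.0% of that of TRAPPC4. No test of the difference between the 44 genes and these lists was run.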

How the data were processed

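The authors deposited raw read counts, as 1 table of 60683 gene rows named by Ensembl identifiers and 6 library columns. The submitters' processing notes name HISAT2 and the build GRCh38. The aligner's version, the counting program, the annotation and whether strand was used: not given in the sources used here. If strand was ignored, genes that overlap on opposite strands share reads. RNA was total RNA taken with Trizol, per the labels' protocols. Groups and replicate numbers came from the sample titles.

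The counts were tested with edgeR 4.0.16 (R 4.3.3). filterByExpr (minimum count 10, minimum total 15) kept 15846 genes, scaled by TMM. A robust quasi-likelihood fit with the group as its only term gave p-values, adjusted by the Benjamini-Hochberg method over all genes, and an adjusted p under 0.05 was a call. Standard errors came from the F statistic. Paralogue ratios used a prior count of 2. The common biological coefficient of variation was 4.19%. Counts carry more than counting error, and the source of the excess was not tested. No library was a copy of another: chi-square per degree of freedom between replicates was 2.26 to 4.26. The scripts were tested on simulated data.

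Positions, transcript lengths, overlaps and pseudogenes came from GENCODE release 29 on GRCh38. All 44 genes are named. By rule, values in every library are given for up to 3 rises and 2 falls per role and both genes of each paralogue pair, and the 4 largest rises and 3 largest falls called per neighbouring list are named. Members and lists were chosen with earlier results of these data known. Same-numbered libraries did not deviate together, so the numbers were not used as pairs. Other settings were DESeq2 size factors, library size alone or upper quartile scaling; no filter, or 1 CPM in at least 3 libraries; the DESeq2 test (version 1.42.0); voom in limma 3.58.1; no robust estimation; a threshold of 1.5-fold; a replicate block; each library left out; and lowess trends (span 0.3) with GC content or expression level removed. Paralogue ratios were repeated with prior counts of 0 and 5.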

Additional observations from a re-analysis of the deposited data

How the results depend on the processing

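The count of 28 genes higher stayed between 25 and 31 in 17 of the 18 other settings, and 25 of the 31 called genes kept their call in all 17; the exception is the test against a 1.5-fold change, which left 1 higher and 0 lower, and 0 and 0 of the neighbouring genes, with 131 higher and 14 lower of all 15846 genes. In the same 17 settings, 1747 to 3213 of all genes were higher and 1971 to 2930 were lower. The count of 3 lower became 1 under scaling by library size and 1 with the expression trend removed. A replicate block left 28 higher and 3 lower, and 19 and 10 neighbouring genes. The deviations of same-numbered libraries correlated at 0.0034, 0.065 and -0.015, so no pairing was seen. Whether they share a culture or a batch cannot be told from 3 libraries a group. Signs turned for 3 uncalled values. SPCS1 was 0.016 under scaling by library size and 0.015 with the expression trend removed, beside -0.027. SRP19 ran from -0.033 to 0.14 when libraries were left out, the negative value being without PBS replicate 2. The MIA2 to MIA3 difference ran from -0.00998 to 0.062 when libraries were left out and was negative without TPBC-PEG replicate 1, TPBC-PEG replicate 2 or PBS replicate 2. The cause of these changes was not tested. With 3 libraries a group, changes near 0.1 on the log2 scale sit at the limit of what was called: SEC62, SPCS3, SRP14 and MCFD2 were called at that size and SEC61B was not.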
